A study of Mus musculus with 9 samples.

Results

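The CXC chemokine gene Cxcl12, its receptor genes Cxcr4 and Ackr3, and the chemokine genes Cxcl5 and Cxcl14 were followed in cells sorted from mouse forelimb buds at E10.5. The members were every probe set whose annotation gives 1 of these 5 symbols and no other, 5 genes of the 18193 that have such a probe set. Cxcl12 has 3 probe sets, Cxcl14 has 2, and Cxcr4, Ackr3 and Cxcl5 have 1 each. The main probe set of a gene is the one with the highest mean over the arrays, and the others served as a check. These genes are named in the study, partly on the strength of the same arrays, so a direction that matches the study is not independent evidence.

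Levels are given as log2 RMA values, 1 per probe set and array, from 9 Affymetrix expression arrays in 3 groups of 3. PAX3-FKHR GFP+ cells came from Pax3PAX3-FKHR/GFP embryos, which carry on one Pax3 allele the fusion PAX3-FKHR, a strong transcriptional activator first known from alveolar rhabdomyosarcoma, and on the other a GFP reporter. Control GFP+ cells came from Pax3GFP/+ embryos, and GFP- cells are the limb bud cells that the sort collected in a separate GFP- gate. The fusion allele is conditional and was opened by a PGK-Cre transgene carried by the mothers, so it is not limited to muscle progenitors, and wherever Pax3 is transcribed the cells can carry GFP. For the GFP- cells the labels name no genotype, and the study names Pax3GFP/+ embryos in one place and Pax3+/+ embryos in another. Each sample was sorted from limb buds pooled over embryos of 1 genotype, and nothing says which embryos shared a litter, so the p-values measure the spread between these samples, and the number of arrays limits their precision.

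Chemokines of the CXC family are secreted proteins that steer cell movement through receptors coupled to G proteins. Cxcl12 signals through Cxcr4, while Ackr3, also called Cxcr7, binds the same ligand, couples to arrestin and removes the ligand from the surroundings. In the limb bud, Cxcl12 is made by mesenchyme, and Cxcr4 marks a subset of the muscle progenitors that leave the somite under the control of Pax3, Met and Lbx1.

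The bases just before the RefSeq start sites of the ligand and its receptors are shown because these genes form 1 ligand and receptor set and moved differently between the sorted groups. Each stretch holds the 120 bases before the start in build GRCm38.p6, written 5′ to 3′ on the strand of the gene, and capitals mark every match to CCCGCCC, an element bound by Sp1, or TATAAA, the element bound by Tbp, on either strand.
Cxcl12, chr6:117168415-117168534, plus strand: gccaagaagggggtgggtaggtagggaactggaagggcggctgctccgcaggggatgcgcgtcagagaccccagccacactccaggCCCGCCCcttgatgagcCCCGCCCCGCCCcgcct
Cxcr4, chr1:128592300-128592419, minus strand: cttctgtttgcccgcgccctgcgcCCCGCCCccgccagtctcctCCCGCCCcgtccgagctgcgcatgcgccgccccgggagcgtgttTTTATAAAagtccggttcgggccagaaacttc
Ackr3, chr1:90203860-90203979, plus strand: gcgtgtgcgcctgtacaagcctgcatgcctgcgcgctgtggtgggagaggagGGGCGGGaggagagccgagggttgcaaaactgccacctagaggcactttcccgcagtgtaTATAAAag
In windows of 300 bases, from 250 before to 50 after the start, which were matched for 4 of the 5 genes and not for Cxcl5, TATAAA was found for Cxcr4 and Ackr3 and not for Cxcl12 or Cxcl14. The matches in Cxcr4 overlap each other on opposite strands. Of all 32851 RefSeq windows of this length, 13.6% hold TATAAA and 25.6% hold CCCGCCC on either strand. Neither TAATTA nor GTCACG, short cores of the homeodomain and paired domain sites that Pax3 binds, occurred in the windows of Cxcl12, Cxcr4, Ackr3 or Cxcl14, and 5.29% and 8.22% of all windows hold them. A match is a description of the letters and not a binding site.

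The groups carried the markers of their labels. Mouse Pax3 was 7.15, 6.83 and 7.33 in the PAX3-FKHR GFP+ replicates, 9.92, 8.94 and 10.22 in the control GFP+ replicates and 5.17, 5.14 and 4.77 in the GFP- replicates. The fusion and GFP alleles together leave no intact mouse Pax3 allele, and Pax3 was lower in PAX3-FKHR GFP+ than in control GFP+ cells (log2 fold change -2.59, standard error 0.29, adjusted p = 0.0036). Of the muscle progenitor markers measured, 9 of 9 were called higher in each GFP+ population than in GFP- cells, and 11 of 12 limb mesenchyme markers were called lower. Among those markers, Met, the receptor that lets progenitors leave the somite, and Lbx1, a homeobox factor of migrating progenitors, did not overlap between GFP+ and GFP- arrays. The GFP- arrays were not equal among themselves, since the mean level of 11 blood and macrophage markers was 6.52, 8.57 and 9.13 in replicates 1, 2 and 3.

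All arrays were fitted together with limma, with p adjusted by Benjamini-Hochberg over all probe sets, and a call needed an adjusted p under 0.05 together with a log2 fold change of 0.5 or more either way. With PAX3-FKHR, 1 member was called higher (Cxcl5), 1 was called lower (Cxcl12) and 3 were not called. Over all genes, 0.61% were called higher and 0.203% lower in this comparison. For somites and/or limbs, the study lists Cxcl5, Cxcl14, Ackr3 (as CXCR7) and CXC15 as up with PAX3-FKHR and CXC12 as down. It reports Cxcr4 as not altered. Here, in limb cells alone, Ackr3 (log2 fold change 0.72) and Cxcl14 (-0.21) were not called. Cxcl15, if that is the gene meant by CXC15, was a low signal at -0.14 and not called (adjusted p = 0.79). Control GFP+ against GFP- cells gave 2 members called higher (Cxcr4 and Cxcl5) and 1 called lower (Cxcl14), against 2.79% of all genes higher and 1.93% lower. PAX3-FKHR GFP+ against GFP- cells gave 3 members called higher (Cxcr4, Ackr3 and Cxcl5) and 2 called lower (Cxcl12 and Cxcl14), against 3.9% and 2.79% of all genes. The arrays of the compared groups did not overlap for 4, 4 and 5 members in the 3 comparisons, while 14.3%, 24.1% and 27.9% of all genes did not overlap. The members were chosen with such results known, so these shares are given as a background only. Any 2 of the comparisons share 1 group of arrays.

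**Figure D1:**
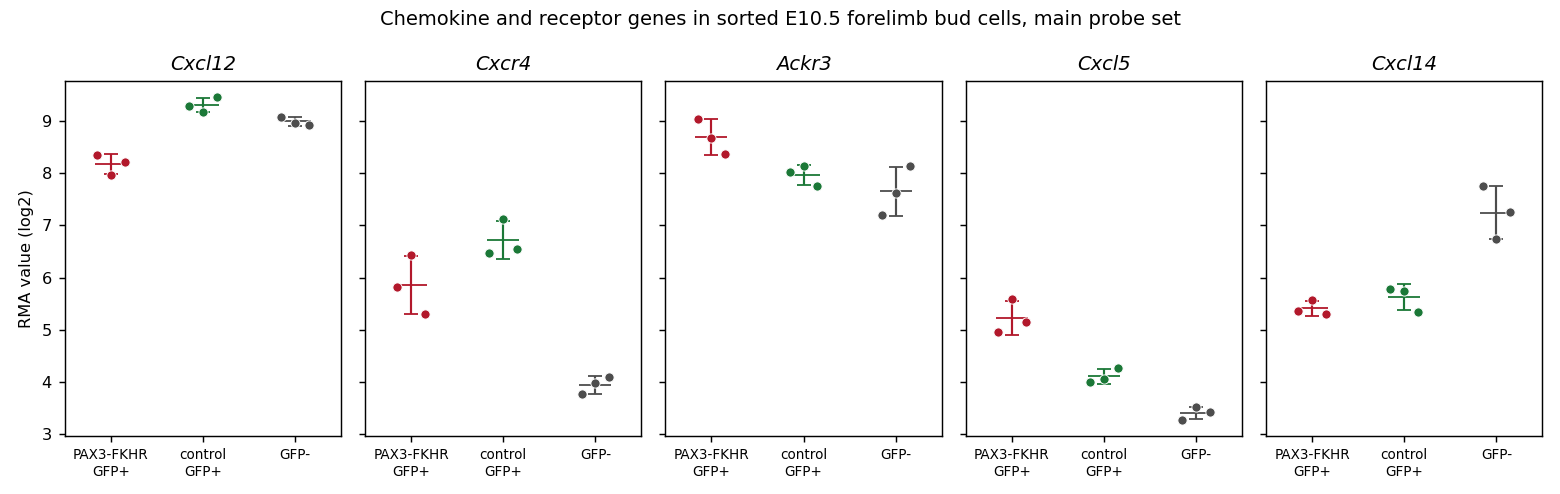
RMA values (log2) of the main probe set of each gene, with 1 point per array, and the bar and whiskers giving mean ± SD of 3 arrays. Cxcl12 lies lowest in the PAX3-FKHR GFP+ arrays, Cxcr4 and Cxcl5 lie lowest in the GFP- arrays, and Cxcl14 lies highest in the GFP- arrays.

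Cxcl12, the ligand, was at 8.36, 7.96 and 8.21 in the PAX3-FKHR GFP+ replicates, 9.30, 9.19 and 9.46 in the control GFP+ replicates and 9.09, 8.98 and 8.93 in the GFP- replicates. The PAX3-FKHR GFP+ arrays formed a low group of their own, clear of the others. The group means ± SD (n = 3) were 8.18 ± 0.20, 9.32 ± 0.14 and 9.0 ± 0.08. Cxcl12 fell 2.20-fold with PAX3-FKHR against control GFP+ cells (log2 fold change -1.14, standard error 0.14, adjusted p = 0.0070). Against GFP- cells it was 1.77-fold lower (log2 fold change -0.82, standard error 0.14, adjusted p = 0.0070). Control GFP+ and GFP- cells, the neighbours at the top of the order, were not called different. Their log2 difference was 0.32 with a 95% interval from -0.01 to 0.64 and an adjusted p of 0.24, although the 3 control GFP+ arrays lay above the 3 GFP- arrays.

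Markers of muscle differentiation also differed between the GFP+ populations. Their mean level over 10 genes was 8.68, 8.73 and 8.27 in the PAX3-FKHR GFP+ replicates and 8.05, 8.07 and 7.05 in the control GFP+ replicates, with no overlap and control replicate 3 apart from the others. The median log2 fold change of the 10 was 0.77, and 1 was called, the troponin gene Tnnt1 (1.30, adjusted p = 0.033). The study reports the opposite direction for Myogenin and for myosin and troponin genes, and it lists Myogenin as down in somites only. Somites are another tissue, taken there at an earlier stage. Without control replicate 3, the log2 fold changes with PAX3-FKHR were -1.06 for Cxcl12 (adjusted p = 0.019) and 1.2 for Cxcl5 (adjusted p = 0.024), both called. The part of differentiation in the chemokine values was not tested.

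The other Cxcl12 probe sets were a partial check. The second brightest was at 7.39, 6.88 and 6.81 in PAX3-FKHR GFP+, 8.03, 8.01 and 7.82 in control GFP+ and 7.80, 8.06 and 7.79 in GFP- cells. These arrays again kept the PAX3-FKHR GFP+ group below the others, with a log2 difference of -0.93 from control GFP+ cells that was not called (standard error 0.18, adjusted p = 0.061) and one of -0.85 from GFP- cells that was called (adjusted p = 0.017). The third, a dim probe set with a mean of 5.0 over all arrays, near the array medians of 5.08 to 5.13, overlapped between the groups in all comparisons, and its log2 difference with PAX3-FKHR was -0.18 (95% interval -0.51 to 0.15, adjusted p = 0.83). With the mean of the 3 probe sets in place of the main one, the log2 fold change with PAX3-FKHR was -0.75 and remained called (adjusted p = 0.045).

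**Figure D2:**
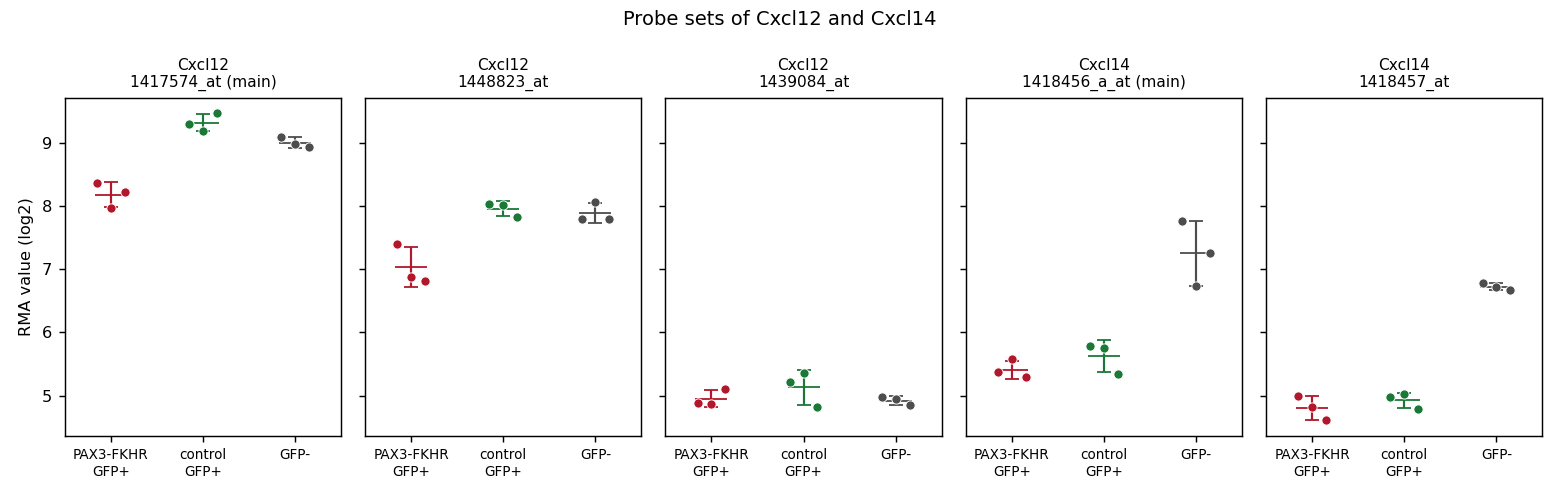
RMA values (log2) of the 3 Cxcl12 and 2 Cxcl14 probe sets, with 1 point per array and mean ± SD of 3 arrays. The second Cxcl12 probe set has the order of the main one for the PAX3-FKHR GFP+ arrays, the third is near 5 in all groups, and both Cxcl14 probe sets are highest in GFP- cells.

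Cxcr4, the receptor through which Cxcl12 guides cells, separated GFP+ from GFP- cells. It was at 5.83, 6.43 and 5.31 in the PAX3-FKHR GFP+ replicates, 6.48, 7.13 and 6.55 in the control GFP+ replicates and 3.76, 3.97 and 4.10 in the GFP- replicates. All GFP+ arrays lay above all GFP- arrays, with group means ± SD (n = 3) of 5.86 ± 0.56, 6.72 ± 0.36 and 3.94 ± 0.17. In control GFP+ cells Cxcr4 was 6.86-fold higher than in GFP- cells (log2 fold change 2.78, standard error 0.27, adjusted p = 3.2e-04). In PAX3-FKHR GFP+ cells it was 3.77-fold higher than in GFP- cells (log2 fold change 1.91, standard error 0.27, adjusted p = 0.0020). The GFP- values lay below the medians of their arrays, 5.11, and near their lower quartiles of 3.65 to 3.68, so they are low signals too. With no detection calls among the deposited values, both folds are those of the measured values. These values alone do not tell whether the GFP- signal was above background. The study, which made present and absent calls, cites Cxcr4 from its list of transcripts found in GFP+ but not in GFP- limb bud cells.

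Between the GFP+ populations, the Cxcr4 difference was not called. The PAX3-FKHR GFP+ arrays lay below the control GFP+ arrays, the nearest pair being 6.43 and 6.48, and the log2 difference was -0.86 with a standard error of 0.27, a 95% interval from -1.46 to -0.27 and an adjusted p of 0.40. Between arrays of the same replicate number it was -0.65, -0.70 and -1.24, and with a replicate block the adjusted p was 0.24 on all arrays and 0.075 on the 6 arrays compared, not called in either fit. Several marker lists of other cells ordered the arrays within a group as Cxcr4 did at the top. The mean level of 12 endothelial markers was 5.82, 6.16 and 5.66 in the PAX3-FKHR GFP+ replicates, 6.10, 6.91 and 5.82 in the control GFP+ replicates and 5.27, 5.88 and 6.23 in the GFP- replicates, so in each group the array with the highest Cxcr4 value also had the highest endothelial value. The same arrays, replicate 2 of both GFP+ populations and replicate 3 of the GFP- cells, were also highest for the blood and macrophage, neural crest and glia, and neuron markers. Between the groups, the endothelial means overlapped, and none of the 12 genes was called in any comparison. The mean of 5 neural crest and glia markers ran from 7.26 to 8.46 in the GFP+ arrays and from 6.21 to 6.55 in the GFP- arrays, with 3 of 5 called higher in each GFP+ population than in GFP- cells, and the mean of 8 neuron markers ran from 5.74 to 6.80 against 4.45 to 4.51. Between the GFP+ populations the median log2 differences were -0.44 for the endothelial, -0.30 for the neural crest and glia and -0.02 for the neuron markers. The part of these cells in the Cxcr4 values was not tested. In sorted bulk samples, fewer cells of a type and less RNA per cell cannot be told apart.

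Ackr3, the receptor that scavenges Cxcl12, was highest in the PAX3-FKHR GFP+ arrays, in which its ligand was lowest. It was at 9.04, 8.69 and 8.37 in the PAX3-FKHR GFP+ replicates, 8.03, 8.13 and 7.76 in the control GFP+ replicates and 7.19, 7.63 and 8.13 in the GFP- replicates. The PAX3-FKHR GFP+ arrays were above all others, and the control GFP+ and GFP- arrays overlapped, with GFP- replicate 3 as high as the highest control array. Group means ± SD (n = 3) were 8.70 ± 0.34, 7.97 ± 0.19 and 7.65 ± 0.47. Only the outer groups of this order were called different: Ackr3 was 2.06-fold higher in PAX3-FKHR GFP+ than in GFP- cells (log2 fold change 1.04, standard error 0.25, adjusted p = 0.031). That call was lost without PAX3-FKHR GFP+ replicate 1 or 2 or GFP- replicate 1 or 2, with adjusted p from 0.093 to 0.11. Without GFP- replicate 3 it was kept, at a log2 fold change of 1.28 and an adjusted p of 0.012. The log2 difference between PAX3-FKHR GFP+ and control GFP+ cells was 0.72 (standard error 0.25, 95% interval 0.17 to 1.27, adjusted p = 0.50), and that between control GFP+ and GFP- cells was 0.32 (95% interval -0.23 to 0.87, adjusted p = 0.48). The latter was 0.09 without GFP- replicate 1 and 0.56 without GFP- replicate 3, and not called in either case. A link between the Ackr3 and Cxcl12 levels was not tested.

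**Figure D3:**
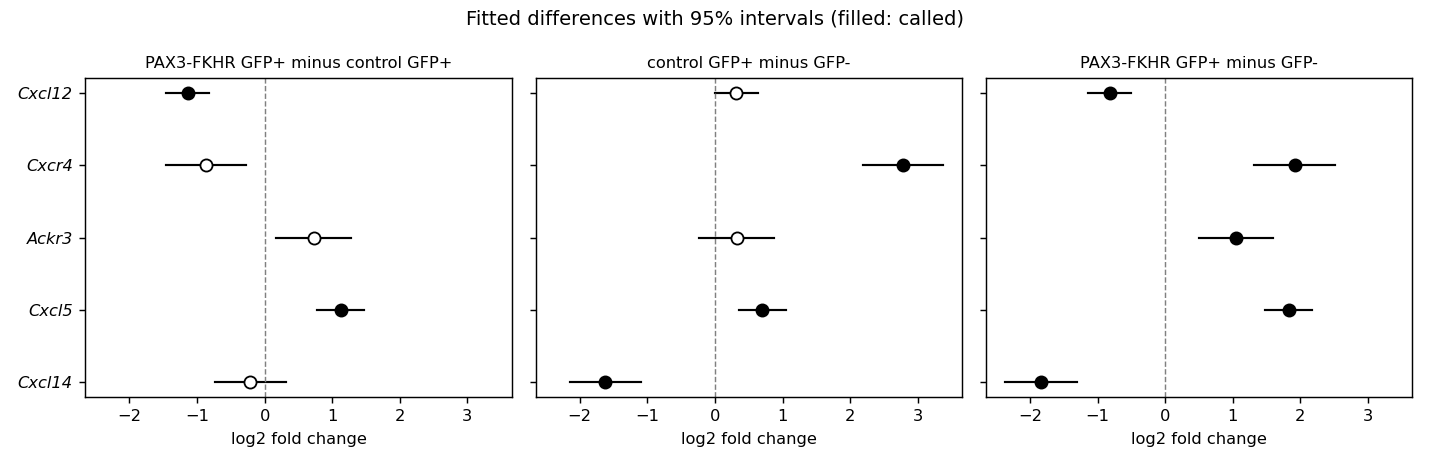
Log2 fold changes of the main probe set of each gene in the 3 comparisons, with 95% intervals from the limma fit of 9 arrays, filled where called. Cxcl12 lies at -1.14 and Cxcl5 at 1.12 in the comparison of the GFP+ populations, and the open points of Cxcr4 and Ackr3 lie at -0.86 and 0.72.

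Cxcl5, a chemokine with the ELR motif that draws neutrophils through Cxcr2, had a stepwise order over the groups. It was at 4.95, 5.59 and 5.15 in the PAX3-FKHR GFP+ replicates, 3.99, 4.06 and 4.26 in the control GFP+ replicates and 3.27, 3.51 and 3.43 in the GFP- replicates. No arrays of different groups overlapped, and every control GFP+ and GFP- value was below the median of its array, so these are low signals. PAX3-FKHR GFP+ replicate 1 was also below its array median of 5.12, and replicate 3 was close to its median of 5.11. Group means ± SD (n = 3) were 5.23 ± 0.33, 4.10 ± 0.14 and 3.40 ± 0.12. Cxcl5 rose 2.18-fold with PAX3-FKHR against control GFP+ cells (log2 fold change 1.12, standard error 0.16, adjusted p = 0.013). It was 1.63-fold higher in control GFP+ than in GFP- cells (log2 fold change 0.70, standard error 0.16, adjusted p = 0.027) and 3.54-fold higher in PAX3-FKHR GFP+ than in GFP- cells (log2 fold change 1.83, adjusted p = 9.7e-05).

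The smaller Cxcl5 differences depended on the arrays. Without control GFP+ replicate 1, the rise with PAX3-FKHR was 1.07 on the log2 scale and not called (adjusted p = 0.065). The difference between control GFP+ and GFP- cells was not called whichever of its 6 arrays was left out (adjusted p from 0.051 to 0.0995). Cxcr2, the receptor of Cxcl5, was between 3.40 and 4.29 on all arrays and was called in no comparison.

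Cxcl14, a chemokine made by many epithelia and also known as BRAK, was highest in the GFP- cells. Its main probe set was at 5.37, 5.57 and 5.30 in the PAX3-FKHR GFP+ replicates, 5.78, 5.75 and 5.34 in the control GFP+ replicates and 7.75, 6.73 and 7.26 in the GFP- replicates. The GFP- arrays lay above all others and the GFP+ populations overlapped, with group means ± SD (n = 3) of 5.41 ± 0.14, 5.62 ± 0.25 and 7.25 ± 0.51. Cxcl14 was 3.08-fold lower in control GFP+ cells than in GFP- cells (log2 fold change -1.62, standard error 0.24, adjusted p = 0.0036) and 3.57-fold lower in PAX3-FKHR GFP+ cells (log2 fold change -1.84, standard error 0.24, adjusted p = 0.0012).

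The second Cxcl14 probe set had the same order with less spread among the GFP- replicates. It was at 4.99, 4.82 and 4.61 in PAX3-FKHR GFP+, 4.97, 5.02 and 4.79 in control GFP+ and 6.79, 6.71 and 6.67 in GFP- cells. On it the log2 fold changes against GFP- cells were -1.80 for control GFP+ (adjusted p = 6.9e-05) and -1.92 for PAX3-FKHR GFP+ cells (adjusted p = 2.0e-05). Between the GFP+ populations the log2 difference was -0.21 on the main probe set (95% interval -0.74 to 0.31, adjusted p = 0.87) and -0.12 on the second (95% interval -0.42 to 0.17, adjusted p = 0.87). The mean level of 12 limb mesenchyme markers was 9.52 to 9.88 in GFP- arrays and 7.52 to 8.00 in all GFP+ arrays, and that of 12 limb ectoderm markers was 5.79 to 6.95 against 4.85 to 5.68. Their part in the Cxcl14 values was not tested.

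The other CXC chemokines gave no calls on their main probe sets. All 12 on the list, from Cxcl1 to Cxcl17 with Pf4 and Ppbp, were measured, and none was called in any comparison on its main probe set. Some of them were low signals, below the lower quartile of every array. For these, the lack of a call does not show a lack of change. The dimmer of 2 Cxcl13 probe sets, at 3.06 to 3.90 on all arrays, was called higher in PAX3-FKHR GFP+ than in GFP- cells (log2 fold change 0.53, adjusted p = 0.044). On the main probe sets, the median log2 fold change was -0.02 with PAX3-FKHR, 0.04 for control GFP+ minus GFP- and 0.05 for PAX3-FKHR GFP+ minus GFP-, beside -0.03, 0.08 and 0.05 over all genes. Pf4, the platelet chemokine also called Cxcl4, was at 7.10, 7.67 and 6.15 in the PAX3-FKHR GFP+ replicates, 6.85, 8.45 and 5.23 in the control GFP+ replicates and 6.78, 7.87 and 8.84 in the GFP- replicates. Ppbp, a platelet chemokine encoded beside it in the family cluster, was at 4.34, 6.75 and 3.63, then 4.52, 6.86 and 3.79, and then 3.83, 5.02 and 6.58 in the same order of groups.

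The Pf4 and Ppbp values spread widely within each group and overlapped between groups. Their 95% intervals with PAX3-FKHR ran from -1.53 to 1.79 and from -2.30 to 2.00 on the log2 scale. The mean of the 11 blood and macrophage markers was 6.85, 7.58 and 6.13 in the PAX3-FKHR GFP+ replicates and 6.71, 7.55 and 5.96 in the control GFP+ replicates, so within every group the arrays had the same order for Pf4, Ppbp and these markers. That list holds embryonic globin genes such as Hbb-y and Hbb-bh1 and the macrophage gene Csf1r. The part of blood cells in these values was not tested.

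**Figure D4:**
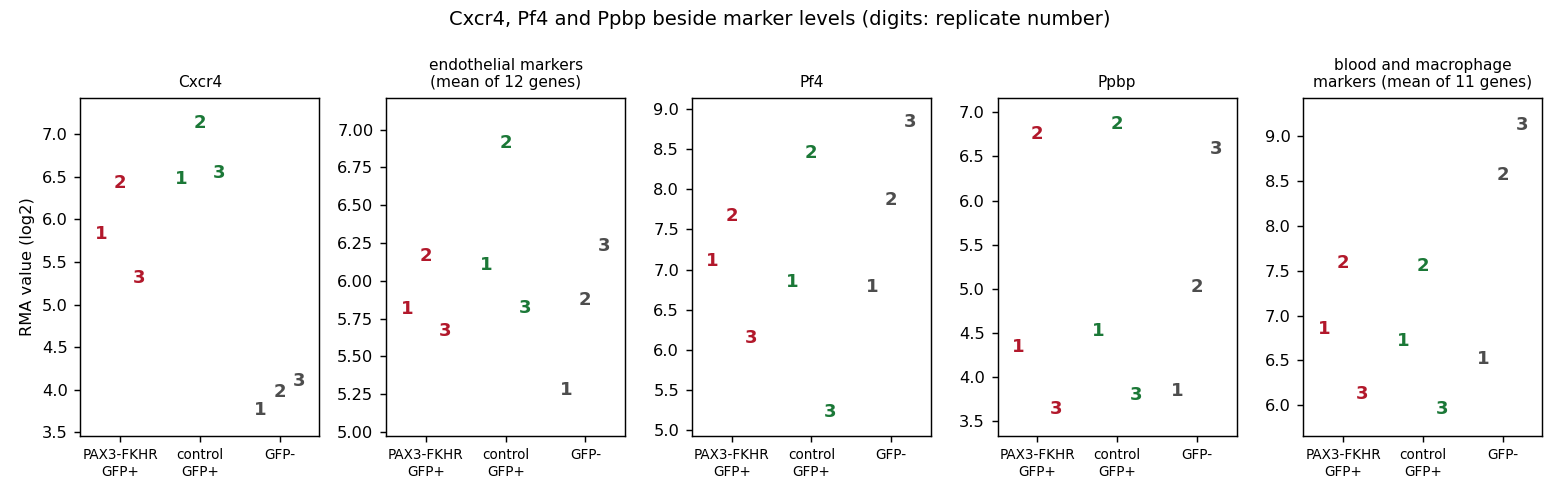
RMA values (log2) of Cxcr4, Pf4 and Ppbp beside the mean of 12 endothelial and of 11 blood and macrophage markers, with a digit for the replicate number of each array and its own vertical scale in each panel. Within each group Pf4, Ppbp and the blood markers order the arrays alike, and the array highest in Cxcr4 is also highest in the endothelial and the blood markers.

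Of the other CXC and atypical chemokine receptors, 7 of 8 were measured, and 1 was called in 1 comparison. Cxcr3, the receptor of Cxcl9, Cxcl10 and Cxcl11, was at 4.89, 5.03 and 4.95 in the PAX3-FKHR GFP+ replicates, 4.76, 4.73 and 4.54 in the control GFP+ replicates and 4.17, 4.46 and 4.31 in the GFP- replicates. These low values did not overlap, and Cxcr3 was called higher in PAX3-FKHR GFP+ than in GFP- cells (log2 fold change 0.64, standard error 0.11, adjusted p = 0.0072). The median log2 fold changes of the 7 receptors in the 3 comparisons were 0.00, 0.14 and 0.16. The other 6 receptors, Cxcr2, Cxcr5, Cxcr6, Ackr1, Ackr2 and Ackr4, were called in no comparison.

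Signalling and turnover genes downstream of Cxcr4 and Ackr3, among them G protein subunits, arrestins, receptor kinases and Rac and Cdc42, were mostly not called. Of 23 measured genes of 25, on their main probe sets, none was called with PAX3-FKHR or between control GFP+ and GFP- cells, and 1 was called between PAX3-FKHR GFP+ and GFP- cells. Their median log2 fold changes were 0.02, 0.00 and -0.07. The called gene was Rgs16, which speeds the shutdown of G protein signalling. It was at 7.80, 8.12 and 7.57 in the PAX3-FKHR GFP+ replicates, 7.20, 7.12 and 5.82 in the control GFP+ replicates and 5.34, 5.68 and 5.75 in the GFP- replicates, with a log2 fold change of 2.24 between the outer groups (standard error 0.33, adjusted p = 0.0025). Its arrays did not overlap, and 2 of its 3 probe sets were called in that comparison.

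Other probe sets of some signalling genes were called where the main one was not, and probe sets of 1 gene then disagreed. Itch, a ubiquitin ligase that sends Cxcr4 for breakdown, was called lower in control GFP+ cells than in GFP- cells on 3 of its 4 probe sets, with log2 fold changes of -1.06, -1.04 and -0.56 (adjusted p = 0.040, 0.029 and 0.040), while its main probe set was at -0.13 (adjusted p = 0.66). Against GFP- cells, PAX3-FKHR GFP+ cells had 2 of the 4 called lower, at -0.93 and -0.63 (adjusted p = 0.043 and 0.022). Usp14, a deubiquitinase of Cxcr4, was called lower on 1 of 4 probe sets in both GFP+ populations, at -0.76 for control GFP+ and -0.90 for PAX3-FKHR GFP+ cells (adjusted p = 0.035 and 0.014). Gnai1, an inhibitory G protein subunit, was called higher on 1 of 3 in PAX3-FKHR GFP+ cells, at 0.68 (adjusted p = 0.016). Itch, Usp14 and Gnai1 are named outside the rule for named genes, after their values were seen. The same holds for Cxcl13, Cxcl15, Pf4, Ppbp, Cxcr2, Mmp9, Six4 and Tnnt1, among others.

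Of 16 genes that bind, modify or cleave Cxcl12 or encode other Cxcr4 ligands, 14 were measured. On their main probe sets, none was called with PAX3-FKHR, 2 were called lower in control GFP+ cells than in GFP- cells and 4 in PAX3-FKHR GFP+ than in GFP- cells. The median log2 fold changes were 0.00, 0.02 and -0.04. Gpc3, a cell surface heparan sulfate proteoglycan, was lower in both GFP+ populations, by log2 fold changes of -1.23 for control GFP+ (adjusted p = 0.0032) and -1.18 for PAX3-FKHR GFP+ cells (adjusted p = 0.0029). Sdc2, a syndecan, was lower by -0.74 (adjusted p = 0.034) and -0.72 (adjusted p = 0.034) in the same order.

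The other calls in this list were between PAX3-FKHR GFP+ and GFP- cells. Sdc1, another syndecan, had a log2 fold change of -0.91 (adjusted p = 0.015) and Mmp2, a matrix metalloproteinase that can cleave Cxcl12, one of -0.75 (adjusted p = 0.025) against GFP- cells. For control GFP+ against GFP- cells these were -0.29 (95% interval -0.70 to 0.12) and -0.14 (95% interval -0.52 to 0.24). With PAX3-FKHR both were at -0.61 on their main probe sets, where their arrays lay below those of control GFP+ cells, and neither was called (adjusted p of 0.37 for Sdc1 and 0.29 for Mmp2). The other Mmp2 probe set also lay below, while the other Sdc1 probe sets overlapped between the GFP+ populations. Against GFP- cells, 2 of 4 Sdc1 probe sets were called lower in PAX3-FKHR GFP+ cells. Mmp9, another metalloproteinase, went the other way on the dimmer of its 2 probe sets, which was called higher in PAX3-FKHR GFP+ than in GFP- cells (log2 fold change 0.65, adjusted p = 0.0045), while its main probe set was not called.

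**Figure D5:**
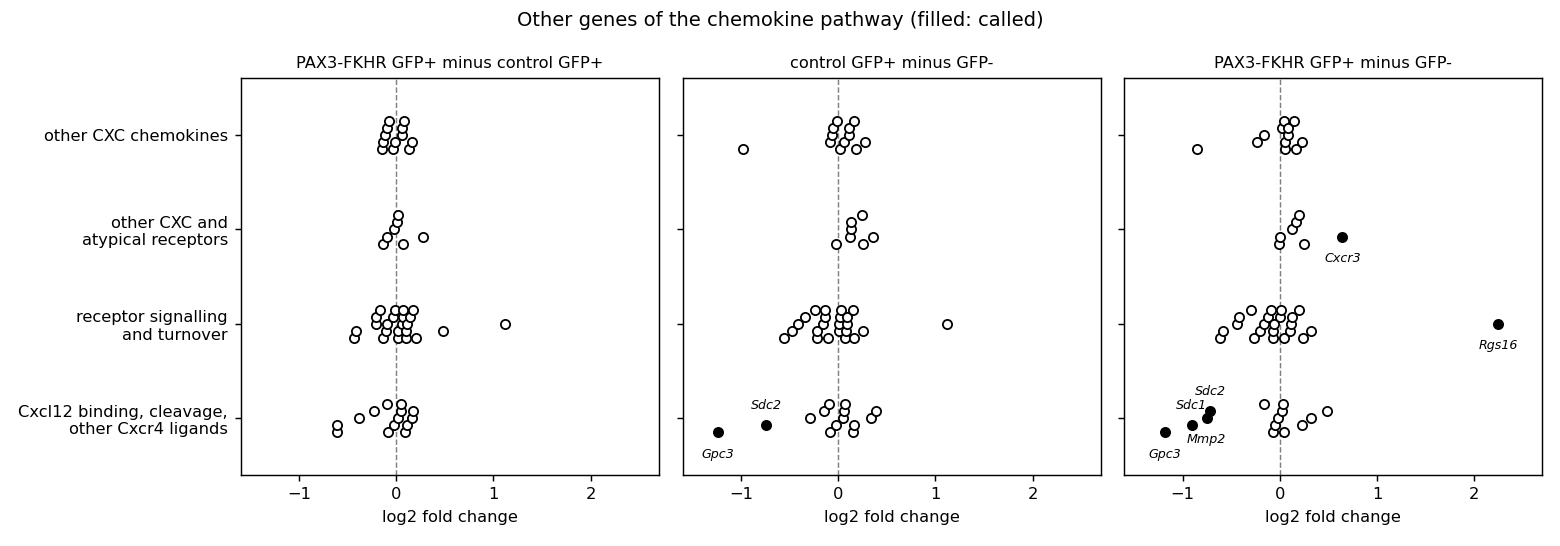
Log2 fold changes in the 3 comparisons for the measured genes of 4 pathway lists, with 1 point per gene on its main probe set, filled and named where called. On these probe sets no gene of the lists is called between the GFP+ populations.

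Genes of progenitor migration are set beside Cxcr4 because it is one of them. Of 11 measured genes of 13, 1 was called lower with PAX3-FKHR on its main probe set, and that was Pax3. Control GFP+ against GFP- cells gave 5 called higher and 3 lower, as did PAX3-FKHR GFP+ against GFP- cells. Lbx1, on which Cxcr4 depends in limb progenitors, was at 9.24, 9.50 and 9.64 in the PAX3-FKHR GFP+ replicates and 9.59, 9.68 and 10.11 in the control GFP+ replicates, with a log2 difference of -0.33 (95% interval -0.95 to 0.29, adjusted p = 0.83). On the other Lbx1 probe set the difference was -0.60 (95% interval -1.07 to -0.13, adjusted p = 0.53). There the PAX3-FKHR GFP+ arrays lay below the control GFP+ arrays, and it was not called. Met was at 10.31, 10.54 and 10.41 against 10.47, 10.68 and 10.83, with a log2 difference of -0.24 (95% interval -0.72 to 0.25, adjusted p = 0.84). Meox2, a homeobox gene of limb muscle, was higher in control GFP+ than in GFP- cells (log2 fold change 0.80, adjusted p = 0.021), and its difference with PAX3-FKHR was -0.81 and not called (adjusted p = 0.094). The other of its 2 probe sets was called lower with PAX3-FKHR, at -0.76 (adjusted p = 0.048).

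Gab1, an adaptor of Met, was called in PAX3-FKHR GFP+ against GFP- cells and in no other comparison (log2 fold change 0.55, adjusted p = 0.036). Six4, a homeobox gene of muscle progenitors, was called there on 1 of its 4 probe sets and not on the main one (log2 fold change 0.55, adjusted p = 0.043). The transcription cofactor gene Eya1 was higher in control GFP+ and in PAX3-FKHR GFP+ than in GFP- cells, by 4.75 (adjusted p = 9.7e-06) and 4.85 (adjusted p = 2.9e-06) on the log2 scale. The genes called lower in both GFP+ populations were Msx1, a homeobox gene of limb mesenchyme, Epha4, a guidance receptor, and Hgf, the ligand of Met. Their log2 fold changes against GFP- cells were -1.82, -1.67 and -1.30 for control GFP+ and -2.45, -1.46 and -1.16 for PAX3-FKHR GFP+ cells.

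For each member, the genes with the most similar values over the 9 arrays were listed by Pearson r, among 3226 or 3227 genes at or above the median level with a range of at least 1 log2 unit. The arrays fall into 3 groups, which these values share, so each r is a description. Closest to Cxcl12 were Nkd2 (r = 0.97), Hoxb3 (r = 0.95) and Tgfbi (r = 0.95). Closest to Cxcr4 were Fabp7 (r = 0.99), Postn (r = 0.98) and Gdpd5 (r = 0.98), and closest to Ackr3 were Nab1 (r = 0.99), Plekha1 (r = 0.98) and Lactb (r = 0.96). Prkce (r = 0.99), Med12l (r = 0.99) and Crtac1 (r = 0.98) were closest to Cxcl5, and Hoxd10, Pcdh18 and Tnfaip6 to Cxcl14, at r = 0.97, 0.97 and 0.96. The GFP- mean of Hoxd10 was 9.30, against 6.08 in control GFP+ and 5.71 in PAX3-FKHR GFP+ cells.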

How the data were processed

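RNA of cells sorted by GFP, amplified in 2 cycles, was hybridised to 9 Affymetrix Mouse430_2 arrays. The authors deposited log2 values per probe set, made with RMA (version not given in the sources used here), with no detection calls. RMA subtracts background and gives all arrays a common distribution, so only relative changes can be read. After 64 array controls were set aside, 45037 probe sets were tested, of which 34945 carry 1 gene symbol, 932 several and 9160 none. All arrays were fitted in limma 3.58.1 (R 4.3.3) with an intensity trend and p adjusted by Benjamini-Hochberg over all probe sets. Of 161 list genes in 14 lists, 11 could not be matched to a probe set with 1 symbol. The members and lists were chosen with earlier results of these data known. Named by rule are the members, list genes called (at most 6 per list and comparison), Pax3, Lbx1 and Met, and 3 genes most like each member. Replicate numbers come from the titles. After the group means were removed, same-numbered PAX3-FKHR GFP+ and control GFP+ arrays correlated by 0.16, 0.47 and 0.29, so they were treated as paired in the alternative with a replicate block, while GFP- arrays did not pair. Alternatives were other scalings, weights, filters and thresholds, a rebuilt local pooled error test and each array of the compared groups left out. The methods were tested on simulated data with independent noise, which held no array effects and no replicate pairing, so that test does not cover either. With 3 arrays a group, the smallest two-sided exact p is 0.1.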

Additional observations from a re-analysis of the deposited data

How the results depend on the processing

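No direction of a member reversed in the 297 alternatives for a member's fold change, and 281 kept the call as well. Many of these could not reverse a direction. Changes of trend, replicate block, threshold, filter or arrays outside the comparison left the fold change of a probe set as it was. The 281 also include members that were uncalled both in the main fit and in the alternative. Both numbers therefore say little about stability. With PAX3-FKHR, Cxcl5 was not called when only the 6 arrays compared were fitted (log2 fold change 1.12, adjusted p = 0.075). The number of members called in that comparison was then 1, and it was also 1 with the filter at the array median on 3 arrays and with a mean of at least 5, which both left Cxcl5 out. At a log2 fold change of at least 1, Cxcl5 (0.70, control GFP+ minus GFP-) and Cxcl12 (-0.82, PAX3-FKHR GFP+ minus GFP-) were not called. With a replicate block, Ackr3 between PAX3-FKHR GFP+ and GFP- cells was at 1.04 and not called (adjusted p = 0.052, and 0.11 on the 6 arrays compared). Since GFP- arrays did not pair by replicate number, the block does not describe that comparison, and this loss of the call is not read further. For the paired comparison of the GFP+ populations, the block on all arrays, which also numbers the GFP- arrays, gave Cxcl12 an adjusted p of 0.017 and Cxcl5 one of 0.014. On the 6 arrays compared these were 0.012 and 0.019. The block changed no other call. Each of the 6 arrays compared was also left out in turn. This gave log2 fold changes for Cxcl5 from 0.94 to 1.26 with PAX3-FKHR and from 0.62 to 0.76 for control GFP+ minus GFP-. For Ackr3 they ran from 0.82 to 1.28 for PAX3-FKHR GFP+ minus GFP-. The members called with PAX3-FKHR then numbered 1 or 2. Ackr3 has no value without probe sets ending in _s_at. The cause of these changes was not tested. With RMA values alone, low signals such as Cxcl5 have no detection limit to be read against.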
